A study of Mus musculus with 15 samples.

Results

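The p53 pathway and the genes p53 induces were followed across 15 RNA sequencing libraries of mouse pre-B cells. The members are p53 itself, its regulators and its direct targets, 35 genes named in all. Of these, 33 were found by symbol among the 11551 genes measured, and Perp and Gdf15 were not analysed here. Every one of the 11551 genes had passed in at least 1 of the authors' own comparisons, so a share of all genes given below is a share of genes already selected for change.

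p53, encoded by Trp53, is a transcription factor that is held low by its ubiquitin ligase Mdm2 and becomes stable after DNA damage. Its targets stop the cell cycle, start apoptosis, aid DNA repair and change metabolism, and Mdm2 is itself a target, which closes a feedback loop. In developing B cells the RAG recombinase cuts DNA to assemble antigen-receptor genes, and the kinase ATM, which senses such cuts, can activate p53.

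The cells were pre-B cells made into permanent lines with Abelson virus, whose v-Abl kinase drives their growth, and were used at passage 10 to 15. All 5 groups, of 3 libraries each, had imatinib for 48 h, which stops v-Abl. Art_shBCLAF1 and Art were Art -/- cells with and without a short hairpin RNA against BCLAF1. Art stands for Artemis in this field, the nuclease that opens DNA ends after RAG cuts, and the labels of these 2 groups name neither a SPIC construct nor doxycycline. Rag_SPIC_tet_DOX_shBCLAF1, Rag_SPIC_tet_DOX and Rag_SPIC_tet_NoDOX were Rag -/- cells, which cannot make RAG cuts, with a tetracycline-controlled construct for the ETS factor SPIC. Rag_SPIC_tet_DOX_shBCLAF1 carried doxycycline and the hairpin, Rag_SPIC_tet_DOX carried doxycycline alone, and Rag_SPIC_tet_NoDOX carried neither. No label names a control hairpin. Nor does any label say that replicates came from separate cultures, so each p-value rests on the spread among these samples alone, which may be technical.

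Promoter sequence is shown for 5 genes on which the results below turn. Cdkn1a, Mdm2 and Ppm1d are p53 targets that act in arrest or in the feedback loop, Btg2 fell in both hairpin comparisons, and Plk3 rose in both. Each run is the 250 bases before a RefSeq start of the gene on GRCm38.p6, on the strand of the gene. Cdkn1a has 2 such starts, and the run before the other one held no match to either motif. Capitals mark matches to the p53 half-site in Cdkn1a, Mdm2 and Ppm1d, and to the PU.1 core GAGGAA, read on the opposite strand, in Btg2. The Plk3 run held a match to neither.
Cdkn1a, chr17:29090729-29090978, plus strand: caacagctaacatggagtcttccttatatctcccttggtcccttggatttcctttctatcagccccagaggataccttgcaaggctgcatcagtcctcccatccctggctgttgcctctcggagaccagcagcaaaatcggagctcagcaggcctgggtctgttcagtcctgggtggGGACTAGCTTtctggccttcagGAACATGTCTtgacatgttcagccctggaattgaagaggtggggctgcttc
Mdm2, chr10:117710759-117711008, minus strand: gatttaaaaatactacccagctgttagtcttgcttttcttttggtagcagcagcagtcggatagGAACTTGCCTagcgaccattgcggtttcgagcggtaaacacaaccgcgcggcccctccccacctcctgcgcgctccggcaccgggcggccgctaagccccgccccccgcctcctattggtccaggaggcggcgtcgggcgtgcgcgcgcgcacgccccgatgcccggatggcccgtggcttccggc
Ppm1d, chr11:85311004-85311253, plus strand: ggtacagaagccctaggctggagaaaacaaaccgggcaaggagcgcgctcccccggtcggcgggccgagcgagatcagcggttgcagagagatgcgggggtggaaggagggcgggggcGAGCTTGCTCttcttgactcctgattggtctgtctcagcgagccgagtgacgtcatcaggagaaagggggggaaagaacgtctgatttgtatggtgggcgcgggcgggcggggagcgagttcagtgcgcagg
Btg2, chr1:134079156-134079405, minus strand: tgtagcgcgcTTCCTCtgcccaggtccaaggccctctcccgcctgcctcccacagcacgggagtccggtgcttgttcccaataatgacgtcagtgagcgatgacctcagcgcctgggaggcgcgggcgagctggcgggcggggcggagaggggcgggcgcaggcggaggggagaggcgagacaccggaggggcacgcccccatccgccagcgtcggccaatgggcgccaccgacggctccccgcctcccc
Plk3, chr4:117133964-117134213, minus strand: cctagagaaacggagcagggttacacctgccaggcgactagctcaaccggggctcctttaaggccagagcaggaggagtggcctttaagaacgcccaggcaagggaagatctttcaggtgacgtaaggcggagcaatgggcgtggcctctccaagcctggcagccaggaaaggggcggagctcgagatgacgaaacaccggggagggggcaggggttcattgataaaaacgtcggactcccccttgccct

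The matches in the Cdkn1a run shown began 73 and 51 bases before its start, that of Mdm2 186 bases before it and that of Ppm1d 132 bases before it. Of the 33 genes, 27 had a RefSeq promoter entry, with 37 promoters between them. A p53 half-site, searched on both strands, was found in 12 of these 37 promoters (32.4%), each of a different gene, and in 7.13% of all 32851 promoters of the same length. The 12 genes were Aen, Ccng1, Cdkn1a, Ei24, Gadd45a, Mdm2, Pml, Polk, Ppm1d, Rps27l, Sesn1 and Trp53. GAGGAA on either strand was found in 4 of the 37 (10.8%), those of Btg2, Ccng1, Eda2r and Ephx1, against 23.3% of all promoters. These are letter matches in 1 window and not measured sites. The 33 genes were named as p53, its regulators and its direct targets, so their higher share of half-sites is not an independent result.

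Effective library sizes ran from 17.2 to 27.1 M reads (M, mega) in 14 libraries and came to 5.81 M in Art replicate 3, where 145 genes had 0 reads, against 19 to 56 genes elsewhere. The 33 genes of Art replicate 3 lay at a root-mean-square distance of 1.09 and 1.11 log2 units from Art replicates 1 and 2, which lay 0.138 apart. In that library 14 of the 33 genes were more than 0.5 log2 units below the mean of the other Art libraries and 6 were above it by as much, which is 60.6% of the genes, against 56.3% of all genes. Measured from both other Art libraries instead, 12 were below and 5 above. Eda2r (-3.65) and Mdm4 (-2.46) were the furthest below, and Dcxr (1.90) and Ak1 (1.19) the furthest above, in log2 units from that mean. These distances followed the GC content of the transcript, with a Spearman's rho of 0.726 over the 33 genes and 0.641 over 11521 genes, all from the same library and given as a description. The counts of calls that use the Art group are therefore given with and without this library. Bclaf1 mRNA was higher, not lower, under the hairpin label, at 8.32 ± 0.03 log2 CPM in Art_shBCLAF1 and 7.32 ± 0.79 in Art, and at 8.04 ± 0.06 in Rag_SPIC_tet_DOX_shBCLAF1 and 7.73 ± 0.04 in Rag_SPIC_tet_DOX (SD, n = 3 each). Bclaf1 was at 7.78 ± 0.05 in Art without replicate 3 (n = 2). A direction given for a library labelled shBCLAF1 thus belongs to the label, not to a shown loss of Bclaf1. Spic mRNA was also higher under that label, by 4.10 log2 units in Art_shBCLAF1 against Art and by 3.25 in Rag_SPIC_tet_DOX_shBCLAF1 against Rag_SPIC_tet_DOX, and its part in the results was not tested. The reads of Spic and its change with doxycycline are not given here.

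Levels are log2 CPM, the logarithm of reads scaled to library size, with 0.5 read added by the authors, and are compared between libraries, not between genes. In these bulk samples fewer cells of a type and less RNA per cell cannot be told apart. Across the 5 group means, Rag_SPIC_tet_NoDOX was the highest for 15 of the 33 genes and the lowest for 0, against 16.6% and 15.7% of all genes. Art_shBCLAF1 was the lowest for 20 of the 33 genes and the highest for 2, against 27.0% and 27.1% of all genes. Without Art replicate 3 these counts were 16, 0, 21 and 2. The range of the group means had a median of 0.99 log2 units over the 33 genes and 0.93 over all genes, with Plk2 (4.74), Plk3 (4.03) and Eda2r (2.90) the widest and Trp53 (0.32) and Pml (0.32) the narrowest.

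**Figure D1:**
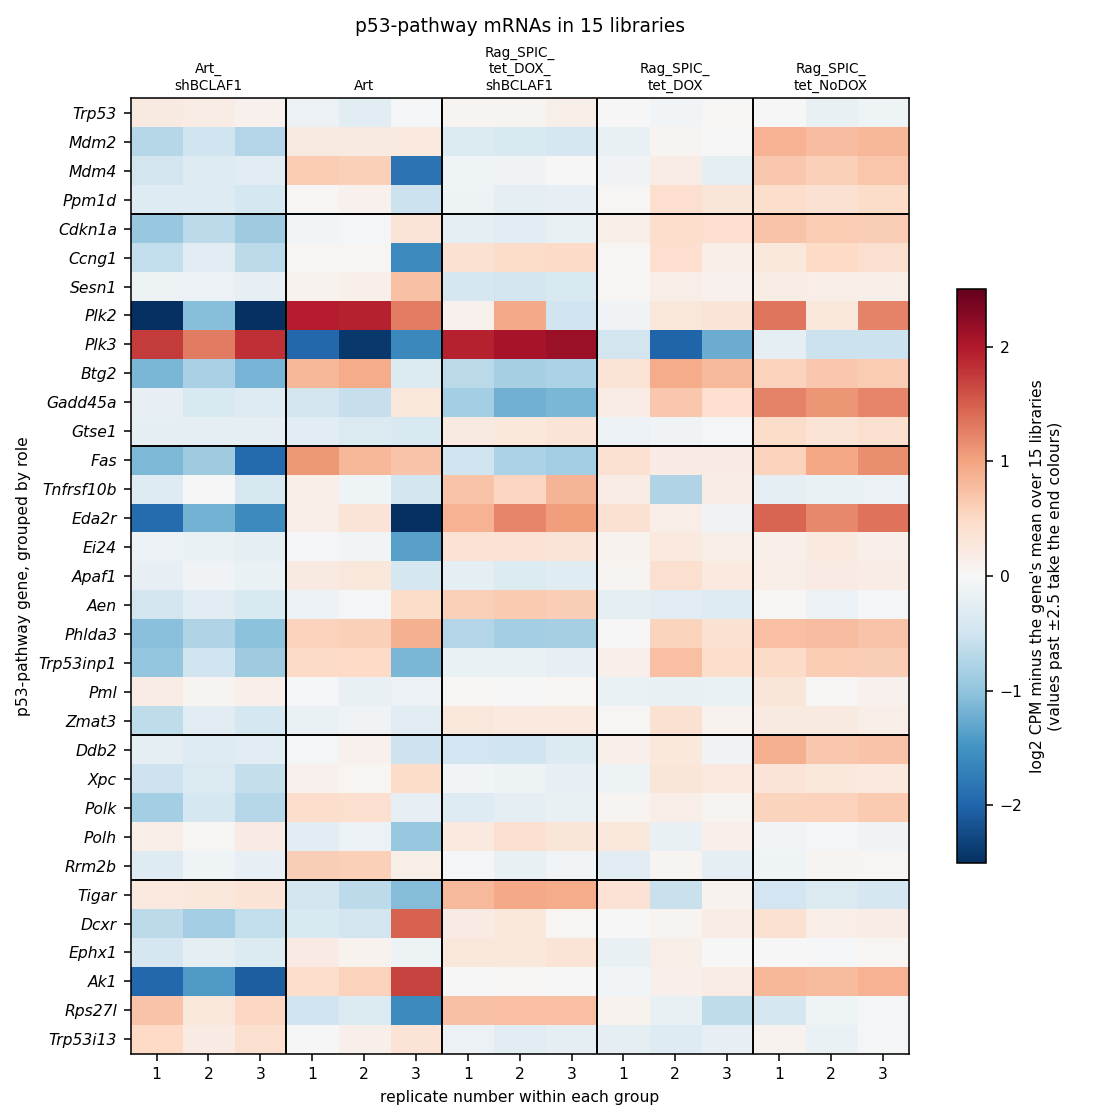
Level of each of the 33 p53-pathway mRNAs (down the page, grouped by role) in each of 15 libraries (across, by group and replicate number), as log2 CPM minus the mean of that gene over the 15 libraries. Plk3 is red in the libraries labelled shBCLAF1, most other genes are blue in Art_shBCLAF1 and pale to red in Rag_SPIC_tet_NoDOX, and Art replicate 3 differs in colour from Art replicates 1 and 2 for many genes.

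Trp53 (ENSMUSG00000059552) varied little. It was at 8.08, 8.04 and 7.98 log2 CPM in Art_shBCLAF1 and at 7.72, 7.58 and 7.84 in Art. Rag_SPIC_tet_DOX_shBCLAF1 held 7.93, 7.94 and 8.01, Rag_SPIC_tet_DOX 7.86, 7.80 and 7.91, and Rag_SPIC_tet_NoDOX 7.87, 7.69 and 7.77. Both hairpin groups lay above their own partner without overlap, by small distances, and the Art, Rag_SPIC_tet_DOX and Rag_SPIC_tet_NoDOX values overlapped.

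Mdm2 (ENSMUSG00000020184), the ubiquitin ligase of p53, separated all 5 groups. It was at 7.29, 7.51 and 7.27 log2 CPM in Art_shBCLAF1 and at 8.22, 8.22 and 8.25 in Art. Rag_SPIC_tet_DOX_shBCLAF1 held 7.65, 7.62 and 7.58, Rag_SPIC_tet_DOX 7.82, 8.07 and 7.98, and Rag_SPIC_tet_NoDOX 8.87, 8.77 and 8.83. No library of any group overlapped another group, with Rag_SPIC_tet_NoDOX at the top, then Art, Rag_SPIC_tet_DOX, Rag_SPIC_tet_DOX_shBCLAF1 and Art_shBCLAF1.

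Mdm4 (ENSMUSG00000054387), which binds and blocks p53, was at 6.59, 6.73 and 6.78 log2 CPM in Art_shBCLAF1 and at 7.68, 7.65 and 5.21 in Art. Rag_SPIC_tet_DOX_shBCLAF1 held 6.94, 6.97 and 7.04, Rag_SPIC_tet_DOX 6.96, 7.22 and 6.82, and Rag_SPIC_tet_NoDOX 7.72, 7.64 and 7.75. The low Art replicate 3 made Art overlap Art_shBCLAF1, and all 3 Rag_SPIC_tet_DOX libraries lay below the Rag_SPIC_tet_NoDOX ones. Ppm1d (ENSMUSG00000020525), a phosphatase that p53 induces and that dampens p53 signalling, was at 5.88, 5.88 and 5.77 in Art_shBCLAF1 and at 6.23, 6.31 and 5.67 in Art. It stood at 6.08, 5.97 and 6.002 in Rag_SPIC_tet_DOX_shBCLAF1, at 6.23, 6.63 and 6.51 in Rag_SPIC_tet_DOX, and at 6.65, 6.59 and 6.66 in Rag_SPIC_tet_NoDOX. The hairpin libraries of the Rag line lay below their partner without overlap, and Rag_SPIC_tet_DOX overlapped Rag_SPIC_tet_NoDOX.

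**Figure D2:**
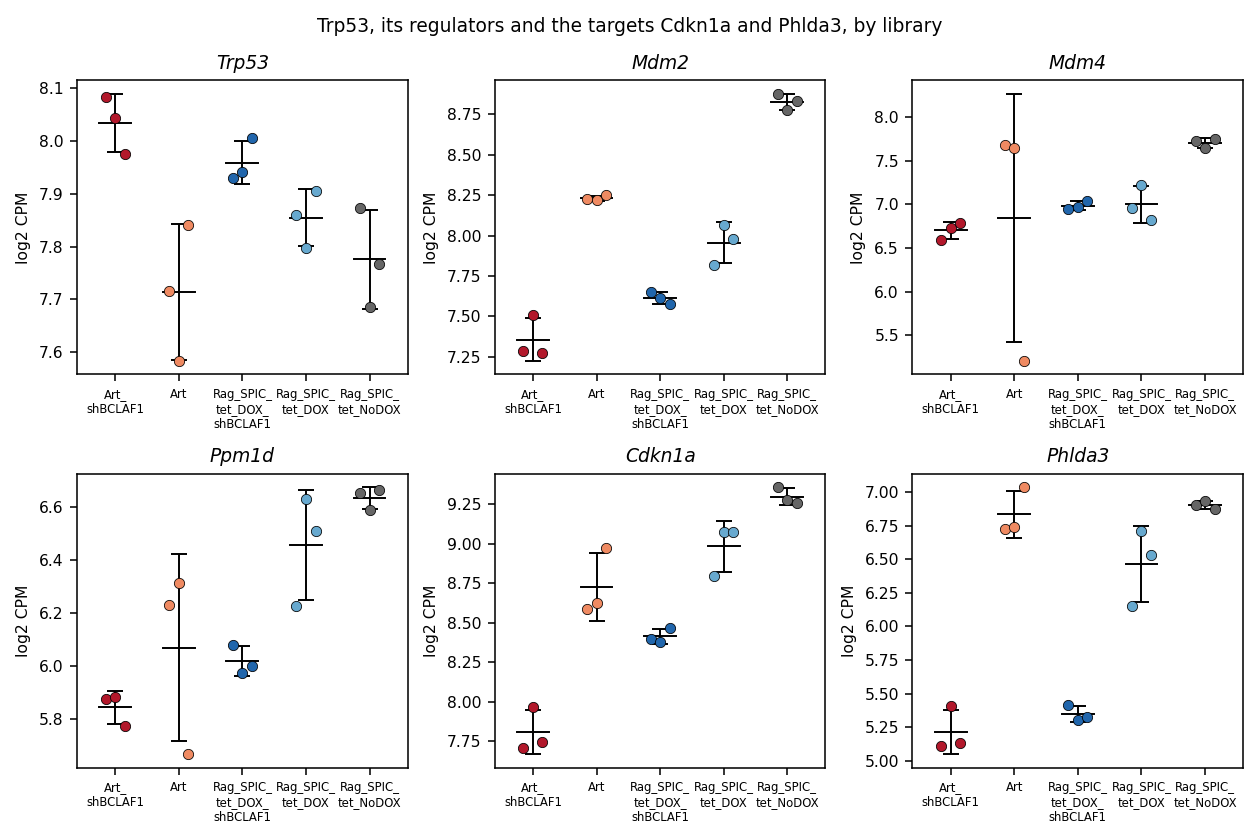
Log2 CPM of Trp53, its regulators Mdm2, Mdm4 and Ppm1d, and the targets Cdkn1a and Phlda3 in each library (points) with the group mean and SD (bars, n = 3), each panel on its own scale. Mdm2 separates all 5 groups, from a mean of 7.36 in Art_shBCLAF1 to 8.83 in Rag_SPIC_tet_NoDOX, whereas the group means of Trp53 span 0.32 log2 units.

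Among the targets that act on the cell cycle, Cdkn1a (ENSMUSG00000023067), the cyclin-dependent kinase inhibitor p21, was at 7.71, 7.97 and 7.75 log2 CPM in Art_shBCLAF1 and at 8.58, 8.62 and 8.97 in Art. Rag_SPIC_tet_DOX_shBCLAF1 held 8.40, 8.38 and 8.46, Rag_SPIC_tet_DOX 8.80, 9.08 and 9.07, and Rag_SPIC_tet_NoDOX 9.36, 9.28 and 9.26. Its order was Rag_SPIC_tet_NoDOX highest and Art_shBCLAF1 lowest, and each hairpin group lay wholly below its partner. Gadd45a (ENSMUSG00000036390), a stress protein that slows the cycle and aids repair, was at 4.65, 4.48 and 4.54 in Art_shBCLAF1 and at 4.39, 4.27 and 5.14 in Art. It stood at 4.003, 3.66 and 3.71 in Rag_SPIC_tet_DOX_shBCLAF1, at 5.03, 5.53 and 5.28 in Rag_SPIC_tet_DOX, and at 6.09, 5.96 and 6.08 in Rag_SPIC_tet_NoDOX. The 3 Rag groups were wholly apart, and the Art groups overlapped.

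Btg2 (ENSMUSG00000020423), an antiproliferative protein, was at 6.64, 6.97 and 6.62 log2 CPM in Art_shBCLAF1 and at 8.61, 8.71 and 7.44 in Art. Rag_SPIC_tet_DOX_shBCLAF1 held 7.10, 6.95 and 6.98, Rag_SPIC_tet_DOX 8.13, 8.71 and 8.59, and Rag_SPIC_tet_NoDOX 8.35, 8.44 and 8.42. The libraries labelled shBCLAF1 were all lower than those of the other 3 groups, which overlapped one another. Gtse1 (ENSMUSG00000022385), a protein of late cell-cycle phases that in human cells holds p53 down, was at 7.02, 7.01 and 6.99 in Art_shBCLAF1 and at 6.96, 6.89 and 6.87 in Art. It stood at 7.46, 7.50 and 7.56 in Rag_SPIC_tet_DOX_shBCLAF1, at 7.10, 7.16 and 7.19 in Rag_SPIC_tet_DOX, and at 7.69, 7.58 and 7.64 in Rag_SPIC_tet_NoDOX. Its groups did not overlap within either line, with Rag_SPIC_tet_NoDOX the highest.

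Plk3 (ENSMUSG00000028680) and Plk2 (ENSMUSG00000021701), stress-responsive Polo-like kinases, had few reads, from 8 to 536 for Plk3 and from 0 to 39 for Plk2. Plk3 was at 3.90, 3.46 and 3.97 log2 CPM in Art_shBCLAF1 and at 0.19, -0.25 and 0.55 in Art. Rag_SPIC_tet_DOX_shBCLAF1 held 4.07, 4.21 and 4.31, Rag_SPIC_tet_DOX 1.70, 0.15 and 0.91, and Rag_SPIC_tet_NoDOX 1.90, 1.62 and 1.61. All 6 libraries labelled shBCLAF1 were above the other 9, and the Art libraries were all below those of Rag_SPIC_tet_NoDOX. Plk2 had 0, 3 and 0 reads in Art_shBCLAF1 and 39, 25 and 5 reads in Art. Its reads were 9, 19 and 7 in Rag_SPIC_tet_DOX_shBCLAF1, 8, 10 and 10 in Rag_SPIC_tet_DOX, and 17, 8 and 16 in Rag_SPIC_tet_NoDOX. Plk2 was lowest in Art_shBCLAF1, while the 3 Rag groups overlapped in reads. Of the other 2 cell-cycle genes, Ccng1, a cyclin that p53 induces, averaged 8.25 ± 0.21 log2 CPM in Art_shBCLAF1, 8.27 ± 0.94 in Art, 9.21 ± 0.05 in Rag_SPIC_tet_DOX_shBCLAF1, 8.98 ± 0.19 in Rag_SPIC_tet_DOX and 9.16 ± 0.12 in Rag_SPIC_tet_NoDOX. Sesn1, which restrains mTORC1 signalling under stress, averaged 6.66 ± 0.03, 7.14 ± 0.36, 6.40 ± 0.04, 6.92 ± 0.07 and 6.99 ± 0.02 log2 CPM in the same order of groups. Its lowest group was Rag_SPIC_tet_DOX_shBCLAF1.

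**Figure D3:**
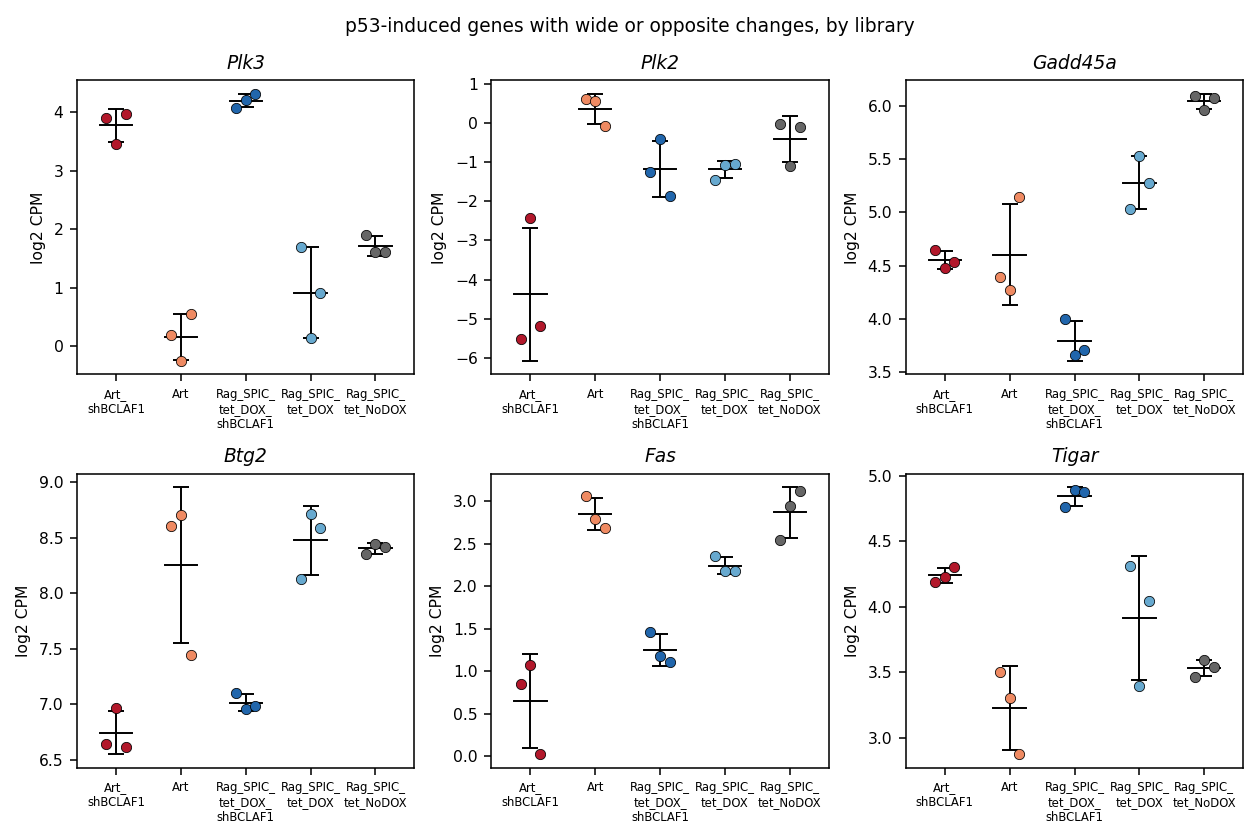
Log2 CPM of 6 p53-induced genes in each library (points) with the group mean and SD (bars, n = 3), each panel on its own scale. Plk3 and Tigar are higher in the libraries labelled shBCLAF1 than in their partner groups, Btg2 and Fas are lower there, Gadd45a is lower there in the Rag line, and Plk2 is at 0, 3 and 0 reads in Art_shBCLAF1.

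Among genes of cell death and its signals, Fas (ENSMUSG00000024778), a death receptor, was at 0.85, 1.08 and 0.02 log2 CPM in Art_shBCLAF1 and at 3.06, 2.79 and 2.69 in Art. Rag_SPIC_tet_DOX_shBCLAF1 held 1.46, 1.17 and 1.11, Rag_SPIC_tet_DOX 2.35, 2.18 and 2.18, and Rag_SPIC_tet_NoDOX 2.54, 2.94 and 3.12. Both hairpin groups were wholly below their partners, Rag_SPIC_tet_DOX was wholly below Rag_SPIC_tet_NoDOX, and Art overlapped Rag_SPIC_tet_NoDOX. Phlda3 (ENSMUSG00000041801), a small protein that blocks the kinase Akt, was at 5.11, 5.41 and 5.13 in Art_shBCLAF1 and at 6.72, 6.74 and 7.04 in Art. It stood at 5.42, 5.30 and 5.33 in Rag_SPIC_tet_DOX_shBCLAF1, at 6.15, 6.71 and 6.53 in Rag_SPIC_tet_DOX, and at 6.90, 6.93 and 6.87 in Rag_SPIC_tet_NoDOX. The 6 libraries labelled shBCLAF1 were all below the other 9.

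Aen (ENSMUSG00000030609), an exonuclease that promotes apoptosis, was at 5.99, 6.19 and 6.07 log2 CPM in Art_shBCLAF1 and at 6.31, 6.41 and 6.92 in Art. Rag_SPIC_tet_DOX_shBCLAF1 held 7.05, 7.10 and 7.06, Rag_SPIC_tet_DOX 6.21, 6.17 and 6.13, and Rag_SPIC_tet_NoDOX 6.49, 6.31 and 6.40. It was higher with the hairpin label in the Rag line and lower with it in the Art line, each without overlap. Eda2r (ENSMUSG00000034457), a receptor of the tumour necrosis factor family, had 5, 7 and 5 reads in Art_shBCLAF1 and 26, 19 and 0 reads in Art. Its reads were 37, 54 and 50 in Rag_SPIC_tet_DOX_shBCLAF1, 27, 22 and 18 in Rag_SPIC_tet_DOX, and 44, 37 and 41 in Rag_SPIC_tet_NoDOX. The value of 0 in Art replicate 3 made the Art groups overlap, and the Rag_SPIC_tet_DOX libraries were below both other Rag groups. The 6 others, Tnfrsf10b, Ei24, Apaf1, Trp53inp1, Pml and Zmat3, had group-mean ranges from 0.32 log2 units for Pml, a scaffold of nuclear bodies, to 1.35 for Trp53inp1, a stress protein of autophagy and apoptosis.

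Among genes of metabolism and other functions, Tigar (ENSMUSG00000038028), which lowers glycolysis and oxidative stress, was at 4.19, 4.23 and 4.30 log2 CPM in Art_shBCLAF1 and at 3.50, 3.31 and 2.87 in Art. Rag_SPIC_tet_DOX_shBCLAF1 held 4.76, 4.89 and 4.88, Rag_SPIC_tet_DOX 4.31, 3.39 and 4.04, and Rag_SPIC_tet_NoDOX 3.47, 3.59 and 3.54. Both hairpin groups were wholly above their partners. Ak1 (ENSMUSG00000026817), an adenylate kinase, was at 1.53, 2.09 and 1.44 in Art_shBCLAF1 and at 3.94, 4.06 and 5.19 in Art. It stood at 3.51, 3.52 and 3.49 in Rag_SPIC_tet_DOX_shBCLAF1, at 3.43, 3.62 and 3.68 in Rag_SPIC_tet_DOX, and at 4.32, 4.29 and 4.36 in Rag_SPIC_tet_NoDOX. Art_shBCLAF1 was far below every other group, and the hairpin and doxycycline groups of the Rag line overlapped. Rps27l (ENSMUSG00000036781), a ribosomal protein-like gene, was at 6.04, 5.60 and 5.83 in Art_shBCLAF1 and at 4.83, 4.99 and 3.74 in Art. Rag_SPIC_tet_DOX_shBCLAF1 held 6.05, 6.07 and 6.07, Rag_SPIC_tet_DOX 5.40, 5.13 and 4.68, and Rag_SPIC_tet_NoDOX 4.90, 5.21 and 5.27. Its hairpin libraries were all above the rest, but it closely resembles Rps27, and the sources used here do not state how reads of such pairs were assigned, so its values are uncertain.

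The 5 repair genes are Ddb2 and Xpc, which recognise damage for nucleotide excision repair, the translesion polymerases Polk and Polh, and Rrm2b, a ribonucleotide reductase subunit. Polk averaged 5.19 ± 0.21 log2 CPM in Art_shBCLAF1, 6.06 ± 0.36 in Art, 5.60 ± 0.07 in Rag_SPIC_tet_DOX_shBCLAF1, 5.95 ± 0.05 in Rag_SPIC_tet_DOX and 6.44 ± 0.06 in Rag_SPIC_tet_NoDOX. Ddb2 averaged 3.36 ± 0.05, 3.48 ± 0.32, 3.19 ± 0.08, 3.73 ± 0.18 and 4.39 ± 0.11 log2 CPM in the same order, and Xpc 6.003 ± 0.13, 6.69 ± 0.22, 6.36 ± 0.07, 6.63 ± 0.24 and 6.77 ± 0.04. All 3 were highest in Rag_SPIC_tet_NoDOX. Rrm2b ran from a mean of 5.21 ± 0.10 in Art_shBCLAF1 to 5.87 ± 0.26 in Art, and Polh from 4.56 ± 0.43 in Art to 5.34 ± 0.08 in Rag_SPIC_tet_DOX_shBCLAF1.

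Art against Rag_SPIC_tet_NoDOX asks what the Art -/- cells, which can make RAG cuts, express that Rag -/- cells do not, although the lines also differ in the SPIC construct. None of the 33 genes passed upward in limma with all libraries. The authors' own comparison listed 20 of the 33 genes, against 6392 of all 11551 genes. Of the 20, Rrm2b and Plk2 were higher in Art and the rest lower. Of the 33 genes, 0 rose and 4 fell in limma at an adjusted p below 0.05, against 2.58% and 2.56% of all 11551 genes, with 9 of the 33 at an unadjusted p below 0.05. The 4 were Plk3 (log2 fold change -1.55, SE 0.26, adjusted p = 0.029), Gadd45a (-1.44, SE 0.24, adjusted p = 0.0288), Gtse1 (-0.73, SE 0.10, adjusted p = 0.0175) and Mdm2 (-0.60, SE 0.09, adjusted p = 0.0252), all with n = 3 per group. The median log2 fold change was -0.31 over the 33 genes and -0.03 over all genes. The groups did not overlap for 15 of the 33 genes, 1 higher and 14 lower in Art. Over all 11551 genes the counts were 2131 higher and 2244 lower, 37.9% together. Trp53 was at -0.06 (SE 0.12, adjusted p = 0.767), Cdkn1a at -0.57 (SE 0.14, adjusted p = 0.074), Ppm1d at -0.56 (SE 0.19, adjusted p = 0.156) and Mdm4 at -0.86 (SE 0.66, adjusted p = 0.492).

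Without Art replicate 3, 3 of the 33 genes rose and 17 fell, against 23.2% and 24.2% of all genes, and the median was -0.18. The groups then did not overlap for 25 of the 33 genes, 6 higher and 19 lower in Art, against 3804 and 3795 of all 11551 genes. Cdkn1a then fell by 0.69 (SE 0.06, adjusted p = 2.13e-08) and Ppm1d by 0.36 (SE 0.06, adjusted p = 7.52e-05), while Rrm2b (0.59, adjusted p = 1.66e-06), Plk2 (0.99) and Btg2 (0.25) rose. Without any 1 of the other 5 libraries, 0 of the 33 genes passed in limma, with 7 to 9 at an unadjusted p below 0.05, and at most 1 of all 11551 genes passed.

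Rag_SPIC_tet_DOX against Rag_SPIC_tet_NoDOX asks what doxycycline does in cells with the SPIC construct. Here too every change that passed in limma with all libraries was downward. The authors' own comparison listed 24 of the 33 genes, against 7749 of all 11551 genes. Of the 24, Tigar, Polh, Tnfrsf10b and Trp53 were higher in Rag_SPIC_tet_DOX and the rest lower. In limma, 0 of the 33 genes rose and 8 fell, against 3.16% and 8.67% of all genes, and the median log2 fold change was -0.18 over the 33 and 0.00 over all genes. The falls were Eda2r (-1.18, SE 0.23, adjusted p = 0.0244), Mdm2 (-0.87, SE 0.09, adjusted p = 0.00558), Gadd45a (-0.76, SE 0.13, adjusted p = 0.0164), Ak1 (-0.75, SE 0.11, adjusted p = 0.012), Mdm4 (-0.71, SE 0.11, adjusted p = 0.014), Ddb2 (-0.66), Polk (-0.49) and Gtse1 (-0.48). By role, 2 of 4 genes of the core loop, 2 of 8 of the cell cycle, 1 of 10 of death and signalling, 2 of 5 of repair and 1 of 6 of metabolism fell. The groups did not overlap for 14 of the 33 genes, all lower in Rag_SPIC_tet_DOX. Over all 11551 genes the counts were 2080 higher and 2624 lower, 40.7% together. Cdkn1a was at -0.32 (SE 0.10, adjusted p = 0.0793) and Trp53 at 0.08 (SE 0.08, adjusted p = 0.481).

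Single libraries decided these counts. Without Rag_SPIC_tet_DOX replicate 2, 1 of the 33 genes rose and 14 fell, against 20% and 19.6% of all genes, and without replicate 3, 0 rose and 1 fell, Mdm2, against 0.026% and 0.476%. Without Rag_SPIC_tet_NoDOX replicate 1, 2 or 3, 0, 5 and 0 of the 33 genes passed, with 11, 14 and 11 at an unadjusted p below 0.05. The share of all genes that passed without these libraries is not given here.

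**Figure D4:**
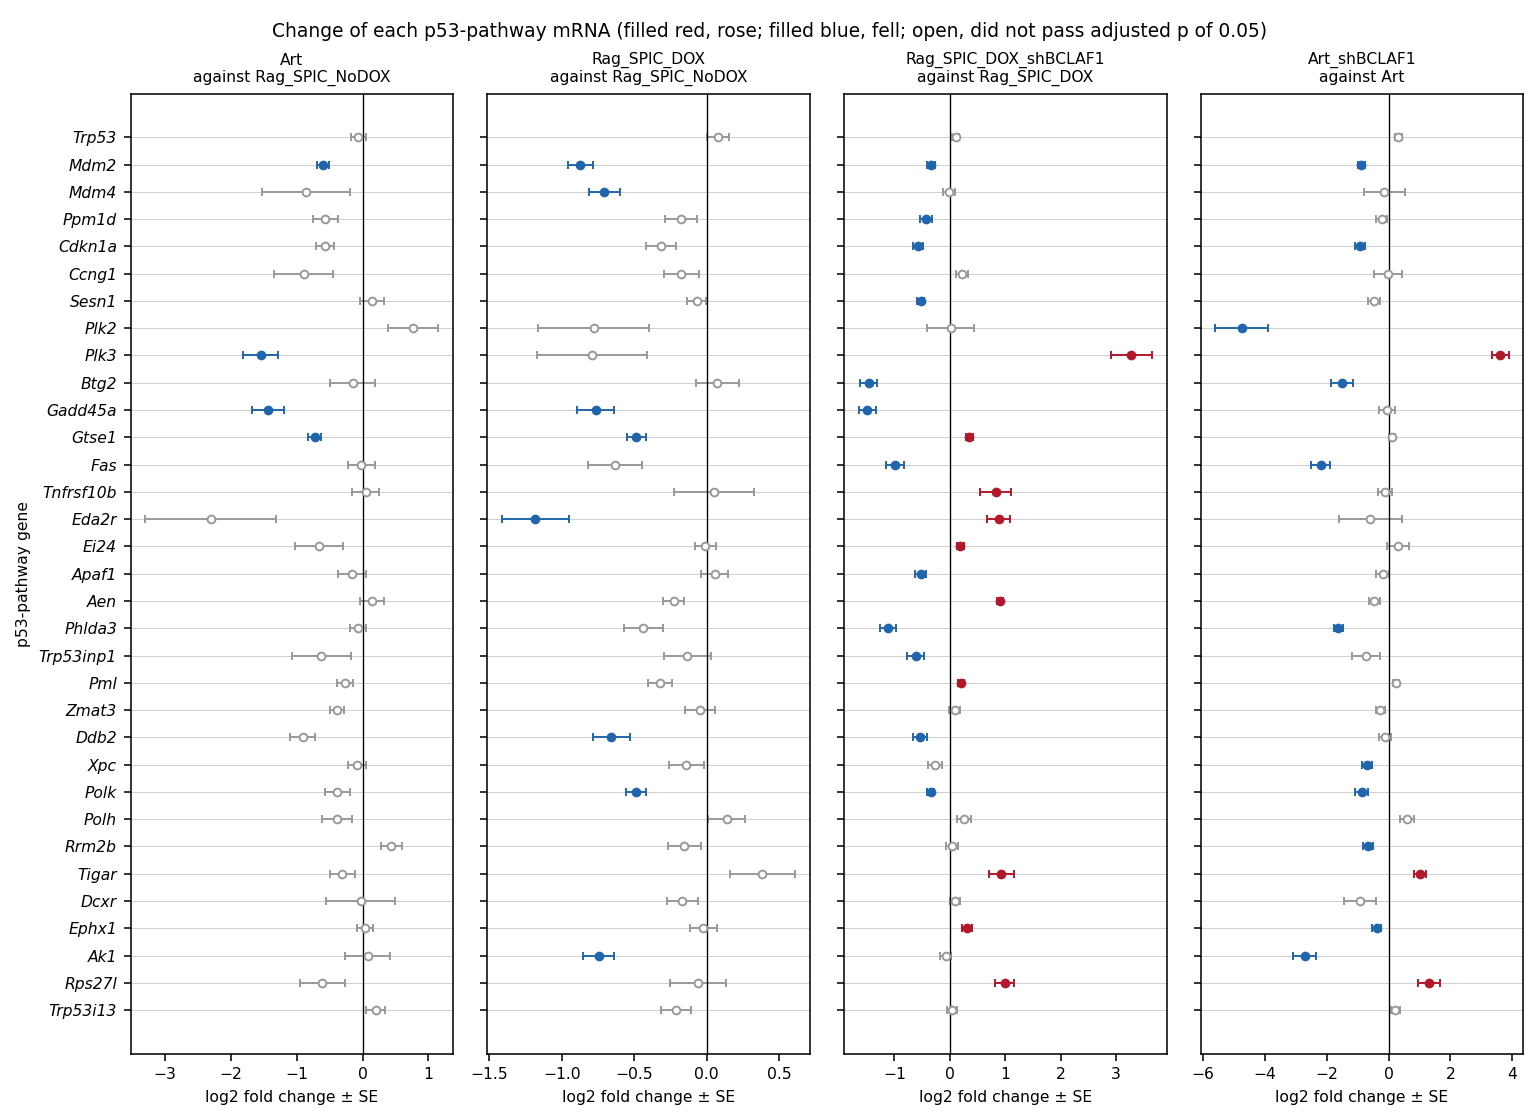
Log2 fold change (points) with its SE (bars, n = 3 per group) of each of the 33 mRNAs in 4 comparisons, each panel on its own scale, filled where limma's adjusted p was below 0.05. The first 2 panels hold 4 and 8 filled points, all left of 0, and the hairpin panels hold filled points on both sides, with Plk3 the furthest right at 3.28 and 3.61.

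Rag_SPIC_tet_DOX_shBCLAF1 against Rag_SPIC_tet_DOX compares the hairpin label within the Rag line. The genes moved in both directions, as did all genes. In limma, 10 of the 33 genes rose and 12 fell, against 28.5% and 25.1% of all genes, and the median log2 fold change was 0.04 over the 33 and 0.05 over all genes. Gadd45a (-1.49, SE 0.15, adjusted p = 0.000797), Btg2 (-1.47, SE 0.15, adjusted p = 0.00079), Phlda3 (-1.11, SE 0.14, adjusted p = 0.00154) and Fas (-0.99, SE 0.15, adjusted p = 0.00312) fell the most. Trp53inp1 (-0.62), Cdkn1a (-0.57, SE 0.09, adjusted p = 0.00344), Ddb2 (-0.54), Apaf1 (-0.53), Sesn1 (-0.53), Ppm1d (-0.44, SE 0.11, adjusted p = 0.0159), Polk (-0.35) and Mdm2 (-0.34, SE 0.08, adjusted p = 0.0112) fell as well. Apaf1 is the core of the caspase-activating apoptosome. Plk3 rose 9.69-fold (3.28, SE 0.37, adjusted p = 0.00105). Rps27l (0.99, SE 0.17, adjusted p = 0.00444), Tigar (0.93, SE 0.23, adjusted p = 0.0146) and Aen (0.90, SE 0.05, adjusted p = 0.000191) followed, with smaller rises in Eda2r (0.88), the death receptor gene Tnfrsf10b (0.83), Gtse1 (0.36), the epoxide hydrolase gene Ephx1 (0.31), Pml (0.20) and Ei24 (0.19), a membrane protein of the endoplasmic reticulum. Trp53 (0.10, SE 0.06, adjusted p = 0.167) and Mdm4 (-0.01, SE 0.11, adjusted p = 0.917) did not pass. The authors' own comparison listed 28 of the 33 genes, against 9479 of all 11551 genes. As Rag_SPIC_tet_DOX minus Rag_SPIC_tet_DOX_shBCLAF1 it held Mdm4 at -0.15, and Trp53 was not listed.

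The falls held 2 of 4 core genes, 4 of 8 cell-cycle genes, 4 of 10 death and signalling genes and 2 of 5 repair genes, and the rises 2 cell-cycle, 5 death and signalling and 3 of 6 metabolic genes. The groups did not overlap for 23 of the 33 genes, 11 higher and 12 lower. Over all 11551 genes the counts were 4097 higher and 3536 lower, 66.1% together. When each library was left out in turn, 13 to 24 of the 33 genes passed, with the share of all genes not given here. Of the 12 falls 9, and of the 10 rises 4 (Plk3, Aen, Rps27l and Gtse1), passed in all 6 fits. Without Rag_SPIC_tet_DOX replicate 2 the rise of Tnfrsf10b was 0.51.

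Art_shBCLAF1 against Art compares the same label in the Art line. More of the genes were lower than higher, and Plk3 again moved the other way. In limma, 3 of the 33 genes rose and 11 fell, against 25% and 24.1% of all genes, and the median log2 fold change was -0.26 over the 33 and 0.05 over all genes. Plk2 fell, with 3 reads in all in Art_shBCLAF1 and 69 in Art, or 0.05 and 1.41 CPM, a ratio of 0.0355 with a 95% exact interval of 0.00714 to 0.108 that covers counting error only. Its limma adjusted p was 0.00515. Ak1 (-2.71, SE 0.38, adjusted p = 0.00191), Fas (-2.20, SE 0.31, adjusted p = 0.00207), Phlda3 (-1.62, SE 0.15, adjusted p = 0.000454) and Btg2 (-1.51, SE 0.35, adjusted p = 0.0129) fell next. Cdkn1a (-0.92, SE 0.15, adjusted p = 0.00368), Mdm2 (-0.87, SE 0.11, adjusted p = 0.00151), Polk (-0.87), Xpc (-0.69), Rrm2b (-0.66) and Ephx1 (-0.39) fell by less. Plk3 rose 12.2-fold (3.61, SE 0.27, adjusted p = 0.000233), Rps27l by 1.31 (SE 0.34, adjusted p = 0.0209) and Tigar by 1.02 (SE 0.19, adjusted p = 0.00607). Trp53 was at 0.32 (SE 0.12, adjusted p = 0.0591), Mdm4 at -0.14 (SE 0.66, adjusted p = 0.875) and Ppm1d at -0.23 (SE 0.19, adjusted p = 0.367). The authors' own comparison listed 31 of the 33 genes, against 9784 of all 11551 genes. As Art minus Art_shBCLAF1 it held Trp53 at -0.36, Mdm4 at 0.92 and Ppm1d at 0.45. There Trp53 was thus higher, and Mdm4 and Ppm1d lower, under the label.

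The falls held 1 of 4 core genes, 3 of 8 cell-cycle genes, 2 of 10 death and signalling genes, 3 of 5 repair genes and 2 of 6 metabolic genes. The groups did not overlap for 21 of the 33 genes, 7 higher and 14 lower. Over all 11551 genes the counts were 3914 higher and 3660 lower, 65.6% together. Without Art replicate 3, 8 of the 33 genes rose and 22 fell, against 40.6% and 39.5% of all genes, with a median of -0.42. The groups then did not overlap for 32 of the 33, 9 higher and 23 lower, against 5073 and 5046 of all 11551 genes. Mdm4 (-0.96, SE 0.07, adjusted p = 2.28e-07), Trp53inp1 (-1.26), Eda2r (-1.81) and Ccng1 (-0.57) then fell, and Trp53 (0.39, SE 0.06, adjusted p = 0.00021) rose. When each other library was left out, 8 to 12 of the 33 genes passed, with the share of all genes not given here. The falls of Mdm2, Plk2, Cdkn1a, Fas, Ak1 and Phlda3 and the rises of Plk3 and Tigar passed in all 6 such fits. Centring each library on its median moved the median of all genes by -0.23 in this comparison and by -0.10 in the Rag line. In the Art line it left 2155 of all genes higher and 3599 lower, so that the higher share of calls was 37.5% in place of 50.9%, and 3 of the 33 genes rose and 14 fell.

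The label effects in the Art and Rag lines shared no library, and 6 genes fell in both, which is 54.5% of the 11 falls in the Art line and 50.0% of the 12 in the Rag line. These were Mdm2, Cdkn1a, Btg2, Fas, Phlda3 and Polk. Over all genes the shared falls made up 47.7% and 45.8% of each line's falls. Plk3, Rps27l and Tigar rose in both, which is 100% of the 3 rises in the Art line and 30.0% of the 10 in the Rag line, against 52.2% and 45.7% over all genes. Ephx1 rose in the Rag line and fell in the Art line. It was the 1 gene of the 33 with opposite calls, against 489 of all 11551 genes. Without Art replicate 3, 11 of the 12 genes that fell in the Rag line also fell in the Art line (91.7%, and 50.0% of the 22 falls there), against 68.1% and 43.2% over all genes. Shared rises then numbered 4, which is 40.0% of the 10 rises in the Rag line and 50.0% of the 8 in the Art line, against 67.4% and 47.2% over all genes. Without that library 4 of the 33 genes passed in opposite directions, against 908 of all 11551 genes. Of the 4, Aen, Eda2r and Ephx1 had a fall and Gadd45a a rise in the Art line. With all libraries, Mdm2 was the only 1 of the 33 genes to fall in all 4 comparisons, and 6 (Ccng1, Dcxr, Polh, Trp53, Trp53i13 and Zmat3) passed in none. Ddb2, Mdm2 and Polk fell in all 4 when Art replicate 3 was left out, and 0 then passed in none. How many of all genes fell in all 4 or passed in none was not counted.

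Whether the label effect differed between the lines was tested with an interaction term, as the effect in the Art line minus that in the Rag line. Both Rag groups used had the SPIC construct and doxycycline, which the Art labels do not name. A difference between the lines therefore cannot be told apart from one due to these. The interaction term passed for 8 of the 33 genes, 1 with a positive and 7 with a negative difference, against 14.3% and 17% of all genes. Gadd45a had the positive one (1.44, SE 0.31, adjusted p = 0.00559 in limma), its change being -0.05 (SE 0.25) in the Art line and -1.49 in the Rag line. Ak1 differed by -2.64 (SE 0.41, adjusted p = 0.000984), from -2.71 in the Art line and -0.07 (SE 0.10) in the Rag line. Aen differed by -1.36 (SE 0.20, adjusted p = 0.000647), from -0.46 (SE 0.19) in the Art line and 0.90 in the Rag line. Mdm2 differed by -0.53 (SE 0.14, adjusted p = 0.013), with a fall in each line. Plk2, Fas, Rrm2b and Ephx1 also had a negative difference. For Plk3 the difference was 0.34 (SE 0.49, adjusted p = 0.633) and for Btg2 -0.05 (SE 0.41, adjusted p = 0.946), which does not show that these effects were equal. Without Art replicate 3 the term passed for 3 genes in the positive and 17 in the negative direction, against 26.6% and 27.8% of all genes.

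**Figure D5:**
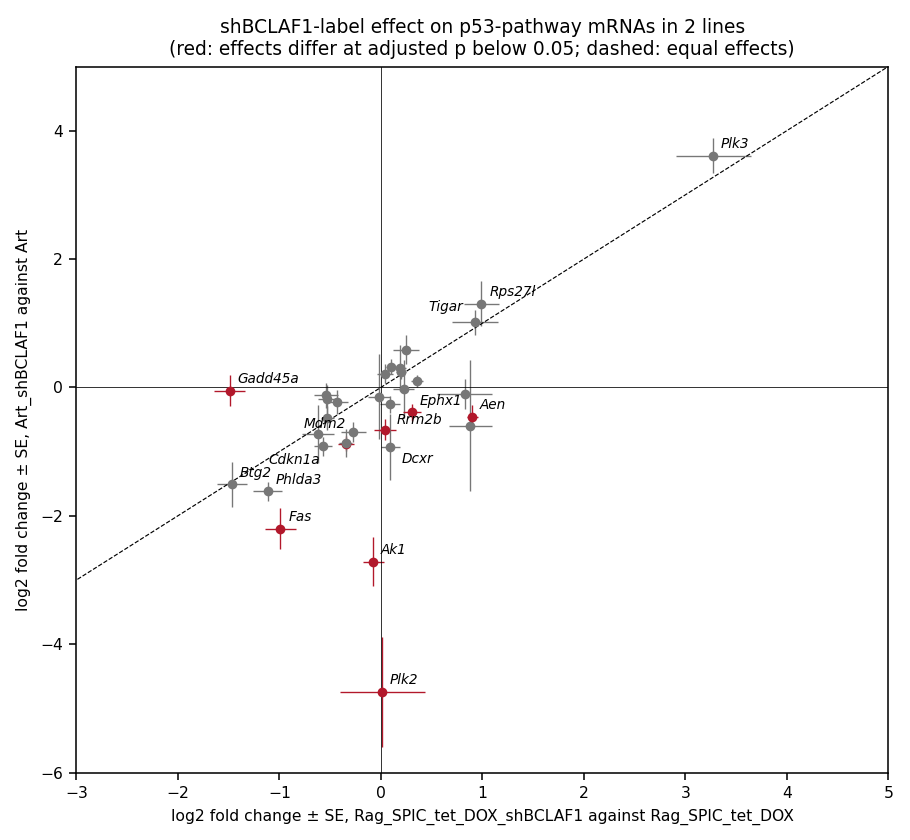
Log2 fold change with SE of each of the 33 mRNAs for the shBCLAF1 label in the Art line (vertical axis) and in the Rag line (horizontal axis), red where the interaction passed an adjusted p of 0.05. Plk3 lies near the line of equal effects at 3.61 and 3.28, whereas Ak1 at -2.71 and -0.07 and Gadd45a at -0.05 and -1.49 lie away from it.

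Other genes of the pathway were counted from a list. Of 15 upstream genes and modifiers, 1 rose and 0 fell in Art against Rag_SPIC_tet_NoDOX, 0 rose and 1 fell in Rag_SPIC_tet_DOX against Rag_SPIC_tet_NoDOX, 4 rose and 4 fell in Rag_SPIC_tet_DOX_shBCLAF1 against Rag_SPIC_tet_DOX, and 2 rose and 4 fell in Art_shBCLAF1 against Art. Over all genes, 2.58% rose and 2.56% fell in the first comparison, and 3.16% and 8.67% in the second. In the third the shares were 28.5% and 25.1%, and in the last 25% and 24.1%. Leaving out Art replicate 3, 8 of the 15 rose and 3 fell in Art against Rag_SPIC_tet_NoDOX, against 23.2% and 24.2% of all genes. In Art_shBCLAF1 against Art 4 of the 15 then rose and 6 fell, against 40.6% and 39.5%. Trp73, a p53 relative, had 1, 2 and 2 reads in Art_shBCLAF1 and 265, 178 and 91 reads in Art. It had 1, 6 and 1 reads in Rag_SPIC_tet_DOX_shBCLAF1, 29, 27 and 23 in Rag_SPIC_tet_DOX, and 59, 52 and 52 in Rag_SPIC_tet_NoDOX. Trp73 passed in all 4 comparisons, higher in Art than in Rag_SPIC_tet_NoDOX (1.96, SE 0.22, adjusted p = 0.0122) and lower in the other 3. Cdkn2a, whose locus encodes the Mdm2 inhibitor p19Arf as well as p16, fell by 3.42 (SE 0.54, adjusted p = 0.0031) in Art_shBCLAF1 against Art and by 1.38 (SE 0.12, adjusted p = 0.000522) in Rag_SPIC_tet_DOX_shBCLAF1 against Rag_SPIC_tet_DOX. Chek1, a DNA-damage checkpoint kinase, rose by 2.85 (SE 0.53, adjusted p = 0.00557) and 1.04 (SE 0.24, adjusted p = 0.0121) in the same comparisons, and Atm rose by 0.55 (SE 0.08, adjusted p = 0.00225) in the second. When Art replicate 3 was left out, Cdkn2a fell by 2.77 (SE 0.15, adjusted p = 2.41e-08) and Chek1 rose by 2.21 (SE 0.09, adjusted p = 4.49e-09) in Art_shBCLAF1 against Art, both smaller changes than with it.

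Of 20 other targets listed, 19 were measured, and Dram1 was not analysed here. In Art against Rag_SPIC_tet_NoDOX 0 rose and 0 fell in limma, against 2.58% and 2.56% of all genes, with 9 at an unadjusted p below 0.05. Without Art replicate 3, 4 rose and 10 fell there, against 23.2% and 24.2% of all genes. In Rag_SPIC_tet_DOX against Rag_SPIC_tet_NoDOX 0 rose and 7 fell, against 3.16% and 8.67% of all genes. The falls were led by Pmaip1 (-1.24, SE 0.07, adjusted p = 0.00109), which encodes the death inducer Noxa. In Rag_SPIC_tet_DOX_shBCLAF1 against Rag_SPIC_tet_DOX 5 rose and 8 fell, against 28.5% and 25.1% of all genes. Pmaip1 was at -0.55, Bbc3, the gene of the death inducer Puma, at -0.38 and Bax, a pore-forming apoptosis gene, at 0.39, all of which passed. In Art_shBCLAF1 against Art 4 rose and 11 fell, against 25% and 24.1% of all genes. The falls held Pmaip1 (-1.67, SE 0.25, adjusted p = 0.00266), Bbc3 (-1.5, SE 0.22, adjusted p = 0.00222) and Bax (-0.55, SE 0.12, adjusted p = 0.0103). Without Art replicate 3, 4 rose and 15 fell there, against 40.6% and 39.5% of all genes. Fdxr, a mitochondrial reductase, rose with the label in both lines, by 1.5 in the Art line and 1.04 in the Rag line.

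Markers of cell state and of other cell types moved with the groups. The summed level of 8 of 8 proliferation markers ran from 3150 to 3580 CPM in Art_shBCLAF1 and from 858 in replicate 3 to 1680 in Art, and from 1890 to 2040 in Rag_SPIC_tet_DOX_shBCLAF1, 2560 to 2750 in Rag_SPIC_tet_DOX and 2920 to 3030 in Rag_SPIC_tet_NoDOX. The 10 of 10 pre-B markers summed to 4360 to 4790 CPM in Art_shBCLAF1 and 10300 to 12200 in Art, and to 5940 to 6160, 5950 to 8590 and 7400 to 7580 in the 3 Rag groups in the same order, so the defining markers of the labelled cell type were present in all. The 6 of 6 myeloid markers summed to 92.7 to 110 CPM in Art_shBCLAF1 and 707 to 933 in Art, and to 67.1 to 72.6, 241 to 316 and 339 to 351 in the Rag groups. Of 5 T and NK markers 2 were measured, with sums between 21.2 and 128 CPM, of 3 erythroid markers 1 was, at 0.261 to 1.12 CPM, and the 3 plasma-cell markers summed to 112 to 209 CPM. The part of these markers in the changes of the p53-pathway genes was not tested.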

How the data were processed

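RNA of 15 libraries was sequenced as paired ends. Per the submitters' processing notes, the tools were Subread, featureCounts 1.4.5, edgeR and limma and the build was mm9, with roles and other versions not stated there. The authors deposited 4 tables, each holding log2 CPM (0.5 read added, effective library size) of all 15 libraries and 1 comparison's fold change and p-value. In the authors' deposited tables every gene listed had an adjusted p below 0.05, so a gene that passed in none of their 4 comparisons is not analysed here. The tables held identical values for shared genes and were joined to 11551 genes, after 152 repeated lines were merged. Read numbers were recovered from the log2 CPM, and 100% of values below 1000 reads came out whole within 0.05. The column of Art replicate 3 differs from its label by 1 character and was matched to it.

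Each comparison was fitted with limma 3.58.1 (trend, two-sided, R 4.3.3) on the 6 libraries of its groups, and the interaction on 12, with Benjamini-Hochberg adjustment over 11551 genes and a threshold of 0.05. Fold changes are on the log2 CPM scale with 0.5 read added, which understates low genes. The procedure was tested on simulated data with independent noise for each gene, and the outcome is not given here. The simulated data did not hold the GC-linked deviation of Art replicate 3. Tables were handled in Python 3.11.15 with pandas 2.3.3. Genes named with full values are Trp53, Mdm2, Mdm4, Ppm1d and Cdkn1a plus those with the 4 top and the 4 bottom changes in each comparison, out of the genes that passed. Members and gene lists were chosen with earlier results of these data known. Alternatives were centring on medians, a minimum mean log2 CPM of 1, 2 reads added, array weights, voom weights, all 15 libraries in 1 fit, a replicate block and each library left out. Intervals cover counting error only.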

Additional observations from a re-analysis of the deposited data

Results flagged for a closer look

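Each of the following 8 genes was picked out because the effect of the shBCLAF1 label differed between the Art and the Rag line in an interaction test in limma (Art effect minus Rag effect, log2, 12 libraries). The Rag groups used also had the SPIC construct and doxycycline, from which the line cannot be told apart. Plk2 differed by -4.76 (SE 1.01, adjusted p = 0.00539), with 0 to 3 reads in the libraries of Art_shBCLAF1. Ak1 differed by -2.64 (SE 0.41, adjusted p = 0.000984). Aen differed by -1.36 (SE 0.20, adjusted p = 0.000647), with a rise in the Rag line and lower values, which did not pass, in the Art line. Fas differed by -1.21 (SE 0.36, adjusted p = 0.0266), having fallen in both lines. Rrm2b differed by -0.70 (SE 0.20, adjusted p = 0.0232). Ephx1 differed by -0.70 (SE 0.16, adjusted p = 0.00792), with a fall in the Art line and a rise in the Rag line. Mdm2 differed by -0.53 (SE 0.14, adjusted p = 0.013). Gadd45a differed by 1.44 (SE 0.31, adjusted p = 0.00559). With each of the 12 libraries left out in turn, 5 of the 7 negative differences and that of Gadd45a passed every time, while Rrm2b lost its call in 5 and Fas in 4 of the 12 fits.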

How the results depend on the processing

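The counts below come without the share of all genes under the same setting, so they do not set the 33 genes apart from other genes. Counts of the 33 genes that passed moved by more than 1.5 times under these settings. With array weights they were 21 in Art against Rag_SPIC_tet_NoDOX, 27 in Rag_SPIC_tet_DOX against Rag_SPIC_tet_NoDOX, 32 in Art_shBCLAF1 against Art and 29 for the difference of the label effects, although some array-weight estimates stopped before they converged. With all 15 libraries in 1 fit they were 11 in Art against Rag_SPIC_tet_NoDOX and 5 in Rag_SPIC_tet_DOX against Rag_SPIC_tet_NoDOX. With 1 library left out at a time they ran from 0 to 20 in Art against Rag_SPIC_tet_NoDOX, 0 to 15 in Rag_SPIC_tet_DOX against Rag_SPIC_tet_NoDOX, 13 to 24 in Rag_SPIC_tet_DOX_shBCLAF1 against Rag_SPIC_tet_DOX, 8 to 30 in Art_shBCLAF1 against Art and 6 to 20 for the difference of the label effects. Replicate numbers showed no sign of pairing the samples. Same-numbered libraries deviated together with correlations from -0.234 to 0.2 over genes, and different-numbered ones from -0.265 to 0.272. With 3 libraries per group these values cannot exclude pairing. A fit with the replicate number as a block gave 0 in Art against Rag_SPIC_tet_NoDOX and 1 in Rag_SPIC_tet_DOX against Rag_SPIC_tet_NoDOX, and 19, 13 and 8 in the other 3. Mdm4 in Rag_SPIC_tet_DOX_shBCLAF1 against Rag_SPIC_tet_DOX changed sign with array weights, to 0.17, and ran from -0.11 to 0.10 with 1 library left out. Mdm4 in Art_shBCLAF1 against Art ran from -0.96 to 0.28, and Trp53 in Art against Rag_SPIC_tet_NoDOX from -0.13 to 0.0028, with 1 library left out. Of the values for single genes, 425 kept direction and side of the threshold under the other settings, 27 lost and 11 gained the call and 1 changed sign. With 1 library left out, 341 kept both, 103 lost and 7 gained the call and 5 changed sign. The cause of these changes was not tested. Plk2 and Eda2r, with at most 39 and 54 reads in a library, are limited by depth.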
